A study of Mus musculus with 12 samples.

Results

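Microglia, the resident macrophages of the brain, take and keep their identity under the control of a small group of DNA-binding proteins. The 9 genes described here encode factors of this group: *Spi1*, *Irf8*, *Maf*, *Runx1*, *Sall1*, *Cebpa*, *Cebpb*, *Mef2a* and *Ikzf1*. They were chosen by name, as the rows of the expression table whose Ensembl mouse identifier carries one of these symbols, and each symbol matched 1 identifier, all protein-coding genes. All 9 were found among the 48623 genes listed, and all 9 passed the filter on low values, which left 11204 genes for testing.

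The libraries came from primary cortical and hippocampal microglia of newborn C57BL/6J pups, grown for some weeks in mixed glial culture and freed of the astrocyte layer by mild trypsin treatment. The groups were wild type (WT) untreated, WT with IL-4, homozygous *Trem2* R47H knock-in (KI) untreated, and KI with IL-4 at 20 ng/ml for 48 h, with 3 libraries in each group. The WT cultures were numbered T13, T33 and T43 and the KI cultures T15, T22 and T32. By their titles each of these 6 gave 1 untreated and 1 treated library, which were taken to share a culture, so that genotype varied between cultures and IL-4 within them. The study describes the KI line as one in which altered splicing lowers *Trem2* itself, so the genotype here stands for reduced *Trem2* as well as for the amino acid change, and it compares the KI cultures with those of WT littermates. Its methods state that pups of the KI line were cultured separately and genotyped afterwards, and that its preparations from WT mice pooled pups of a litter. For the sequenced libraries the study gives its n as mice per genotype and condition. Values are transcript abundances as TPM (transcripts relative to a fixed library sum), which are scaled for transcript length and can be compared between genes, and tests were run with limma on log2(TPM + 1).

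*Spi1* encodes PU.1, the ETS protein without which no microglia form, and PU.1 opens enhancers together with IRF8, RUNX1 and the C/EBP proteins. RUNX1 acts in the yolk sac precursors from which microglia descend, IRF8 is needed for their maturation, and IKAROS, the product of *Ikzf1*, is a zinc-finger regulator of blood lineages. C/EBPα drives myeloid commitment, C/EBPβ drives inflammatory and alternative activation genes in macrophages, and MEF2A and MAF belong to the later, homeostatic programme. SALL1 is the factor that separates microglia from other macrophages in the brain, and it is known to be lost quickly when microglia are taken into culture.

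On GRCm38, with GENCODE gene limits, *Spi1* lies at chr2:91082390-91115756 and *Cebpb* at chr2:167688915-167690418, both on the plus strand. *Cebpa* lies at chr7:35119293-35121928 on the plus strand and *Mef2a* at chr7:67231163-67372858 on the minus strand. Chromosome 8 carries 3 of the members, *Sall1* at chr8:89027235-89044162 and *Maf* at chr8:115682942-115707794 on the minus strand and *Irf8* at chr8:120736358-120756694 on the plus strand. *Ikzf1* lies at chr11:11685003-11772926 on the plus strand and *Runx1* at chr16:92601466-92826149 on the minus strand.

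*Trem2*, the targeted gene, was between 1190.4 and 1886 TPM in the WT libraries and between 325 and 769.9 TPM in the KI libraries, and the genotypes did not overlap. Its KI minus WT difference was -1.43 on the log2(TPM + 1) scale (SE 0.19, limma moderated F-test, adjusted p = 0.00763), and it was -1.16 without culture T15 (adjusted p = 0.00528). The call was kept in 13 and lost in 6 of the alternative settings. Among the losses were the fits without T33 (-1.31, adjusted p = 0.106) and without T43 (-1.44, adjusted p = 0.0766). A moderated test in treated libraries alone did not pass (-1.30, adjusted p = 0.1415). Relative to the mean of the microglial markers the F-test passed (-0.87, adjusted p = 0.0297), and with T15 also left out it did not (-0.73, adjusted p = 0.114). After IL-4, *Mrc1*, the mannose receptor that marks alternative activation, rose by 3.11 on the log2 scale (adjusted p = 0.00265), in 6 of 6 cultures. Markers of microglia were abundant, with the 18 listed genes summing to between 13449.6 and 44372 TPM per library, but *Slc2a5* never passed 1.65 TPM and *Siglech* never passed 5.51 TPM. Of the 6 border macrophage and monocyte markers, *Ly6c2* stayed at or below 0.0565 TPM and *Ccr2* at or below 1.33 TPM, while *Pf4* was between 37.2 and 349 TPM. Of the 6 neutrophil and lymphocyte markers, 5 stayed below 1 TPM everywhere, and *S100a8* reached 14.8 TPM in untreated T13 and 9.52 TPM in untreated T15. KI culture T15 stood apart: its 12 astrocyte markers summed to 4882 and 3746 TPM, against 169 to 709.8 TPM in the other 10 libraries, and its untreated library had the lowest sum of microglial markers. Values of the members are therefore given with and without T15 where they rest on it. In bulk RNA, fewer microglia in a culture and less of an mRNA in each microglia cannot be told apart.

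The promoter windows below are shown because of what was measured for 3 members: *Irf8* was the only member with lower values after IL-4 in every culture, *Cebpb* was the most abundant and the least variable member, and *Mef2a* was the member whose mean IL-4 difference lay closest to 0. Each is the 250 bases before the annotated start, written 5′ to 3′ on the coding strand, from RefSeq on GRCm38.p6, and capitals mark matches to the motifs searched. Of the 9 members, 7 had an entry in the promoter table, and *Spi1* and *Maf* did not. The *Irf8* window is chr8:120736108-120736357 on the plus strand, the *Cebpb* window is chr2:167688665-167688914 on the plus strand, and the *Mef2a* window is chr7:67372859-67373108 on the minus strand.
*Irf8*: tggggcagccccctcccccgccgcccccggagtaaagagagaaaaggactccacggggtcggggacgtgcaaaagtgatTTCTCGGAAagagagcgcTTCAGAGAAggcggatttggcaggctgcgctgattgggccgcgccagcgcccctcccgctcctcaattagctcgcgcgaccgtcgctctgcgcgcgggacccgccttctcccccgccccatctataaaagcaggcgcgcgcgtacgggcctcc
*Cebpb*: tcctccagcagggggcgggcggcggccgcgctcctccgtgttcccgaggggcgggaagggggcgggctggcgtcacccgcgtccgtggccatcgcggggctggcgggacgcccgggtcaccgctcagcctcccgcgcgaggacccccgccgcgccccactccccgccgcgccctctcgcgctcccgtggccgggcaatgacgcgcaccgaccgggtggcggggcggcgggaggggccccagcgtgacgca
*Mef2a*: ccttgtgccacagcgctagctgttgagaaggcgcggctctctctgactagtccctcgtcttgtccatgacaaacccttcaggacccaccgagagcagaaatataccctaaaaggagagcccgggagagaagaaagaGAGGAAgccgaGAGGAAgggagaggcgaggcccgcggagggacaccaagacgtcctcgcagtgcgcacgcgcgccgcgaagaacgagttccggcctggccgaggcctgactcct
Both strands were searched for the STAT motif TTCNNNGAA, the STAT6 spacing TTCNNNNGAA, the PU.1 core GAGGAA, the IRF motif GAAANNGAA, the RUNX core TGTGGT, the C/EBP motif TTGCNNAA and the MEF2 core TAAAAATA. The *Irf8* window held 2 matches to the STAT motif, TTCTCGGAA and TTCAGAGAA, starting 171 and 153 bases before the start of the gene. A second promoter entry of *Irf8*, chr8:120738389-120738638, held none of the motifs. Among 32851 promoter windows of the same length, 7.02% held at least 1 such match and 0.317% held 2 or more. The *Mef2a* window held 2 copies of GAGGAA, which 23.3% of all windows held at least once and 3.54% more than once. The *Cebpb* window, rich in C and G, held none of the 7 motifs. A match of letters is a description of the window and does not show that a factor binds there.

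The members spanned a wide range of levels, and their order over all libraries held in each group except for *Spi1* and *Irf8*, which changed places in the untreated groups. *Cebpb* was the most abundant, with a mean of 431 TPM over the 12 libraries and a range of 308 to 564 TPM. *Spi1* (mean 252 TPM) and *Irf8* (mean 239.7 TPM) came next, and their order depended on the library, with *Spi1* above *Irf8* in 7 of 12. *Cebpa* (80.3 TPM) and *Mef2a* (60.9 TPM) formed a middle tier, *Cebpa* being the higher in 11 of 12 libraries with overlapping ranges. The lowest tier held *Runx1* (25.3 TPM), *Maf* (17.7 TPM), *Ikzf1* (12.9 TPM) and *Sall1* (5.37 TPM), each overlapping its neighbour in range. The steps from *Irf8* to *Cebpa* and from *Mef2a* to *Runx1* were the only ones at which the ranges over all libraries were separate, and both held in 12 of 12 libraries. Within the groups, 20 of the 32 steps between neighbours in the order were separate.

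**Figure D1:**
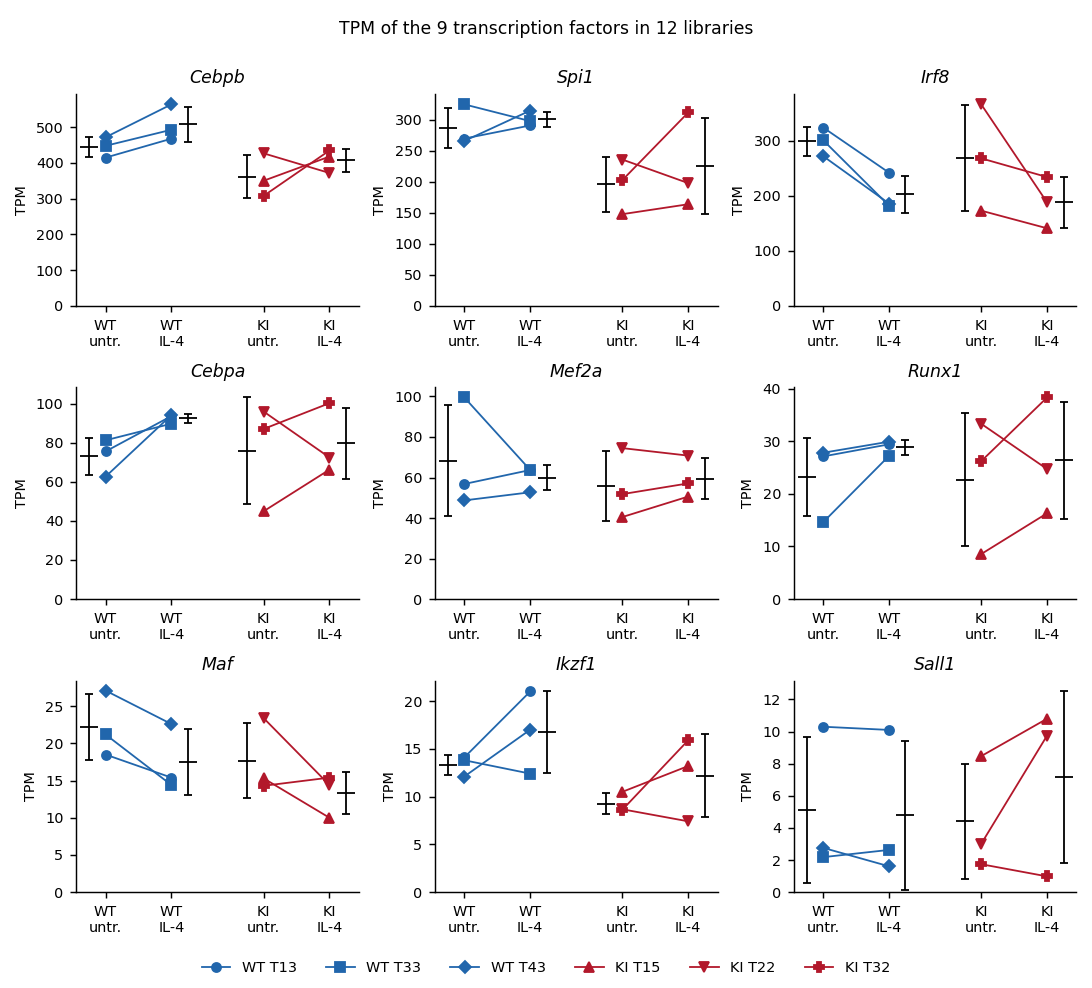
TPM of the 9 members (one panel each, y axis from 0) in WT (blue) and KI (red) cultures, untreated (untr.) and with IL-4. Each line joins the 2 libraries of 1 culture, and black bars give the group mean and SD (n = 3). Irf8 lines slope down in all 6 cultures, and the T15 line (triangles) is the lowest KI line for Spi1, Irf8, Cebpa, Runx1 and Mef2a.

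How closely the cultures of a group resembled each other differed between members. The SD within groups was 0.157 for *Cebpb* on the log2 scale, smaller than for all but 2.55% of tested genes, while the median over the tested genes was 0.469. *Spi1*, *Maf*, *Ikzf1*, *Cebpa*, *Irf8* and *Mef2a* had SDs between 0.304 and 0.373. *Runx1* varied more, with an SD of 0.627 and a 4.48-fold span between the lowest and highest library. *Sall1* was the most variable, with an SD of 1.13, larger than for 92.7% of tested genes, and an 11.0-fold span.

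Without IL-4, the *Spi1* level was 269.9, 325 and 266 TPM in the WT cultures (T13, T33, T43, an order kept for all genes below) and 148, 236 and 203 TPM in the KI cultures (T15, T22, T32). After IL-4 it was at 291, 298 and 315 TPM in WT and at 164, 198 and 312 TPM in KI. The untreated groups did not overlap (287 ± 32.8 TPM in WT, 196 ± 44.4 TPM in KI, SD, n = 3), whereas KI culture T32 reached the WT range after IL-4. The KI minus WT difference, averaged over both treatments, was -0.52 on the log2 scale (95% CI -0.86 to -0.18). The F-test, which takes the differences at both treatments together, did not pass over all genes (adjusted p = 0.202). A test of the averaged difference alone did not pass either (adjusted p = 0.0744). Without T15 the averaged difference was -0.33 (95% CI -0.62 to -0.04, F-test, adjusted p = 0.462). With IL-4, *Spi1* was higher in 4 of 6 cultures, with a mean difference of 0.12 (95% CI -0.22 to 0.46).

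*Irf8*, the partner of PU.1 at composite sites, stood at 324, 301 and 272 TPM without IL-4 in WT and at 242, 182 and 186 TPM in the same cultures with IL-4. In KI it was at 173, 366 and 268 TPM without and at 141, 188 and 234 TPM with IL-4. The WT libraries did not overlap between treatments, the KI libraries did, and the treated library was the lower one in all 6 cultures, by 0.199 (T32) to 0.955 (T22) on the log2 scale. The mean IL-4 minus untreated difference was -0.52 (95% CI -0.90 to -0.14, adjusted p = 0.605). Fitted within cultures, as a replicate block, it was the same size with a narrower interval (95% CI -0.76 to -0.28, adjusted p = 0.0759), so it missed the threshold in both fits. Among all tested genes, 2.51% were lower with IL-4 in 6 of 6 cultures and 5.73% were higher, and *Irf8* was the only member in either class. Between genotypes the values overlapped at both treatments (difference -0.17, 95% CI -0.55 to 0.21), and without T15 the difference was 0.064.

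Without IL-4, *Runx1* stood at 27.1, 14.6 and 27.8 TPM in WT and 8.55, 33.3 and 26.2 TPM in KI. With IL-4 it was at 29.4, 27.2 and 29.9 TPM in WT and at 16.3, 24.7 and 38.3 TPM in KI. The treated WT libraries were close together, and in the other groups the lowest library was T33 (untreated WT) or T15 (both KI groups). The genotype difference was -0.18 (95% CI -0.86 to 0.49) with T15 and 0.24 (95% CI -0.26 to 0.74) without it, so its sign rested on that culture.

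Without IL-4, *Ikzf1* stood at 14.1, 13.8 and 12.1 TPM in WT and 10.5, 8.67 and 8.63 TPM in KI, without overlap. After IL-4 it was at 21.0, 12.4 and 17.0 TPM in WT and at 13.2, 7.41 and 15.9 TPM in KI, with overlap. The genotype difference was -0.47 (SE 0.25, adjusted p = 0.550), and it was -0.56 without T15 and -0.31 without T22. The T22 and T33 cultures were lower after IL-4 and the other 4 were higher.

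Without IL-4, *Cebpb* stood at 415, 448 and 472 TPM in WT and 350.3, 427 and 308 TPM in KI. With IL-4 it was at 468, 493 and 564 TPM in WT and at 418, 372 and 435 TPM in KI. The treated groups did not overlap (means of 508 TPM in WT and 408 TPM in KI, n = 3). The genotype difference was -0.31 (95% CI -0.54 to -0.08, adjusted p = 0.276) and was again -0.31 without T15. IL-4 values were the higher ones in 5 of 6 cultures, all but T22, with a mean difference of 0.19 (95% CI -0.04 to 0.42). *Cebpb* had the narrowest intervals of the members.

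*Cebpa* was at 75.5, 81.2 and 62.6 TPM in untreated WT and at 93.6, 89.7 and 94.1 TPM in treated WT libraries, without overlap. In KI it was at 44.9, 95.9 and 87.0 TPM without and at 66.2, 72.4 and 100.2 TPM with IL-4, and the groups overlapped. The IL-4 difference was 0.34 (95% CI -0.22 to 0.90) in WT and 0.12 (95% CI -0.44 to 0.68) in KI, and the difference between these did not pass the test (interaction -0.23, 95% CI -1.02 to 0.57). T22 was the culture in which *Cebpa* was lower with IL-4. The genotype difference was -0.12 with T15 and 0.10 without it.

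Without IL-4, *Mef2a* stood at 56.8, 99.5 and 48.7 TPM in WT and 40.5, 74.5 and 51.8 TPM in KI. With IL-4 it was at 63.7, 63.7 and 52.7 TPM in WT and at 50.6, 70.8 and 57.1 TPM in KI. The groups overlapped in every comparison, and T33 in the untreated state was the highest library. The mean IL-4 difference was 0.00 (95% CI -0.42 to 0.43), and the genotype difference was -0.14 (95% CI -0.57 to 0.28), or 0.011 without T15.

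*Maf* was at 18.5, 21.2 and 27.1 TPM in untreated WT and at 15.4, 14.4 and 22.6 TPM in treated WT libraries. In KI it was at 15.3, 23.4 and 14.3 TPM without and at 10.0, 14.4 and 15.4 TPM with IL-4. The groups overlapped in each comparison of genotype at 1 treatment and of treatment within 1 genotype, although the treated library was the lower one in 5 of 6 cultures, T32 being the exception. The IL-4 difference was -0.36 (95% CI -0.84 to 0.12, adjusted p = 0.963), and the genotype difference was -0.35 (95% CI -0.83 to 0.13), or -0.22 without T15.

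Without IL-4, *Sall1* stood at 10.3, 2.18 and 2.76 TPM in WT and 8.47, 3.01 and 1.74 TPM in KI. With IL-4 it was at 10.1, 2.63 and 1.61 TPM in WT and at 10.8, 9.75 and 0.981 TPM in KI. The high values cut across the groups. Both libraries of T13 and of T15 and the treated library of T22 were at 8.47 TPM or above, and the other 7 were at 3.01 TPM or below. Neither effect could be resolved for this gene, since the 95% CI of the genotype difference ran from -1.08 to 1.37 and that of the IL-4 difference from -1.08 to 1.38. The sign of the genotype difference was positive with T15 (0.14) and negative without it (-0.33).

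Astrocyte markers moved with *Sall1* in part. *Gfap*, the intermediate filament of astrocytes, was at 3013 and 2157 TPM in the T15 libraries and at 389 and 368 TPM in the T13 libraries, and it was between 88.1 and 119 TPM in those of T33 and T43. The T22 culture had 80.5 TPM of *Gfap* untreated and 271 TPM with IL-4, as its *Sall1* went from 3.01 to 9.75 TPM. The T32 culture did not follow this, with 272 and 351 TPM of *Gfap* beside 1.74 and 0.981 TPM of *Sall1*. The part of astrocyte RNA in the *Sall1* values was not tested.

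**Figure D2:**
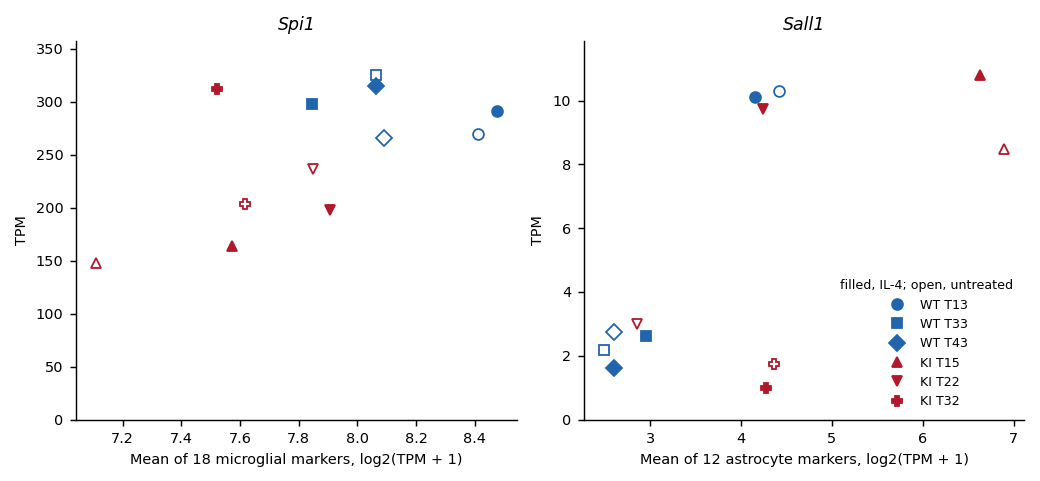
TPM of Spi1 against the mean log2(TPM + 1) of 18 microglial markers (left) and TPM of Sall1 against the mean of 12 astrocyte markers (right) in the 12 libraries. Colours give the genotype, symbols the culture, and filled symbols IL-4. The untreated T15 library, at 148 TPM of Spi1, has the lowest microglial mean, and the 5 libraries with the highest Sall1 belong to T13, T15 and T22.

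None of the 9 members passed the test for genotype, where 1.65% of all tested genes did (185 genes). For the IL-4 effect none passed, where 0.893% did (100 genes), and none for the interaction, where the percentage was 0 over all genes as well. An unadjusted p under 0.05 was given for genotype to 2 members, *Spi1* and *Cebpb*, and to 1799 of the 11204 tested genes. For IL-4 it was given to 1 member, *Irf8*, and to 814 genes, and for the interaction to 0 members and 357 genes. Tests of an averaged difference alone, and those within 1 treatment or genotype, were counted for the members in the main setting only. In the 54 combinations of comparison and alternative setting no member passed. The smallest adjusted p over these was 0.0744 in the genotype tests, 0.0759 in the IL-4 tests and 0.946 in the interaction tests. The 95% intervals show the limit of this: they reach -0.86 for the genotype difference of *Spi1*, -0.90 for the IL-4 difference of *Irf8* and beyond 1 on the log2 scale for *Sall1*.

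**Figure D3:**
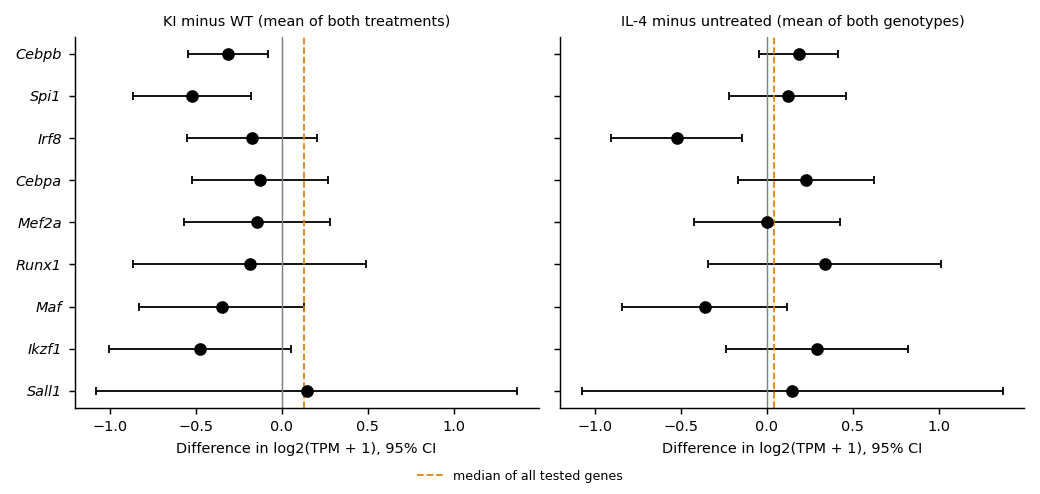
Differences in log2(TPM + 1) with 95% confidence intervals for the 9 members, KI minus WT averaged over treatments (left) and IL-4 minus untreated averaged over genotypes (right). The dashed line is the median over the 11204 tested genes. The intervals of Spi1 and Cebpb (left) and of Irf8 (right) leave out 0, yet none of these passed adjustment over all genes.

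Counts of groups without overlap were small. Among untreated cultures, 2 of 9 members, *Spi1* and *Ikzf1*, had all KI values below all WT values, as did 4.55% of tested genes, and 0 members had them above, as did 13.6%. After IL-4, 1 member, *Cebpb*, was wholly below WT (5.79% of genes) and 0 were above (12.7% of genes). With IL-4 in WT, 1 member, *Cebpa*, was wholly above the untreated group (10.8% of genes) and 1, *Irf8*, wholly below it (4.93% of genes). With IL-4 in KI, 0 members were wholly above (5.47% of genes) or wholly below (3.98% of genes).

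The genotype differences of the members lay mostly on the negative side, whereas those of all genes did not. For 8 of 9 members, all but *Sall1*, the KI mean was the lower one, with a median difference of -0.18, against a median of 0.13 and 36.9% negative differences over all tested genes. Scaling by the median ratio moved the median of all genes from 0.13 to 0.01 and took the members with it, to -0.65 for *Spi1* and -0.44 for *Cebpb*, with *Sall1* still positive at 0.04. The mean of the 18 microglial markers was itself lower in KI by 0.56 (7.6 against 8.16 on the log2 scale), or by 0.44 without T15, and 5 of the 16 that could be tested fell (*Aif1*, *C1qb*, *Fcrls*, *Csf1r* and *Itgam*, by 0.66 to 0.93). Set against that mean, the differences of all 9 members were positive, from 0.04 for *Spi1* and 0.09 for *Ikzf1* to 0.44 for *Cebpa* and 0.71 for *Sall1*, and none passed the test (adjusted p between 0.182 and 0.960). Set against the same mean, all tested genes had a median difference of 0.69 with 6.17% negative, and of the members only *Sall1* lay above that median. With T15 left out as well, *Ikzf1* was at -0.12 and *Sall1* at 0.10, and the other 7 were positive, from 0.11 for *Spi1* to 0.68 for *Runx1*. The median over all genes was then 0.53, with 9.99% negative. Without T15, the values as deposited were negative for 5 members (*Spi1*, *Ikzf1*, *Cebpb*, *Maf* and *Sall1*) and positive for 4. Markers of other cells also moved with genotype. The 10 markers of mural cells and fibroblasts summed to 142 to 617 TPM in the WT libraries and to 704 to 1327 TPM in the KI libraries, *Acta2* and *Tagln*, which encode smooth muscle proteins, rose in KI by 2.11 and 1.93 on the log2 scale (adjusted p = 0.00296 and 0.00626), and 2 of the 10 stayed below 1 TPM everywhere. *Olig1*, of the oligodendrocyte lineage, rose by 2.69 (adjusted p = 0.0438). Of the 7 markers of this lineage that could be tested, 5 were higher and 2 lower in KI, and no other passed. All 11 astrocyte markers that could be tested were higher in KI, with a median difference of 1.62. None of them passed the F-test (lowest adjusted p = 0.0835). The calls of these markers are from the fit without a replicate block. How much of the members' genotype differences goes with these cells or with the share of microglial RNA was not tested beyond these values.

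With IL-4 the mean of the microglial markers differed by 0.04 and that of the astrocyte markers by 0.21, against -0.56 and 1.67 for KI minus WT, or -0.44 and 0.73 without T15. Single microglial markers moved with IL-4 in opposite directions: *Cx3cr1*, the fractalkine receptor, fell by 1.16 (adjusted p = 0.0420), and *C1qa*, a complement subunit, rose by 0.79 (adjusted p = 0.0391). The 6 border macrophage and monocyte markers, *Mrc1* among them, summed to 38.0 to 191 TPM without and to 81.1 to 396 TPM with IL-4, and 3 of them (*Lyve1*, *Cd163* and *Ly6c2*) stayed below 1 TPM everywhere. The endothelial list moved through *Flt1*, which rose by 1.96 (adjusted p = 0.000560), while *Cldn5* was listed at 0 in every library.

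**Figure D4:**
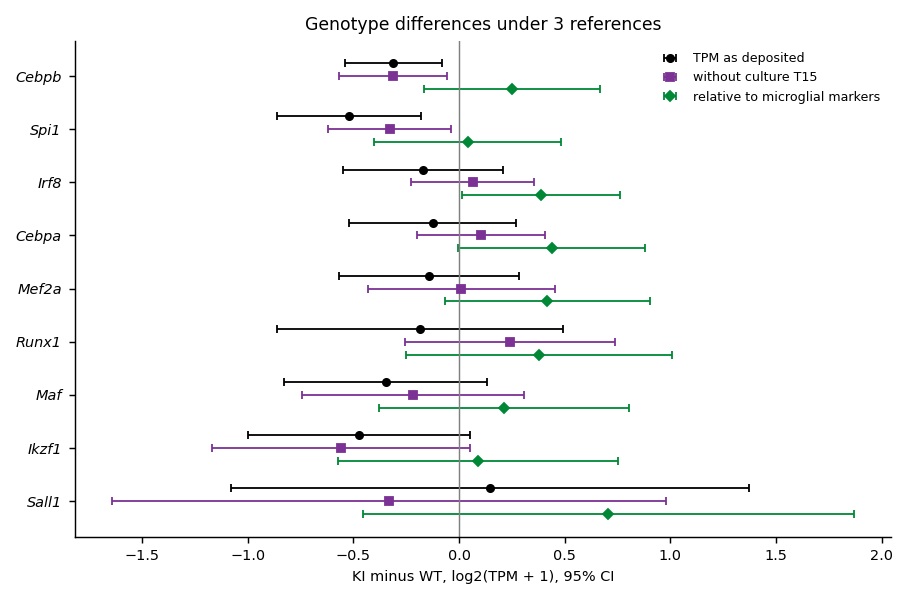
KI minus WT differences in log2(TPM + 1) with 95% confidence intervals for each member, from TPM as deposited (circles), without culture T15 (squares) and relative to the mean of 18 microglial markers in each library (diamonds). Spi1 moves from -0.52 to 0.04 and Irf8 from -0.17 to 0.39 when set against the markers. The median over all tested genes moves from 0.13 to 0.69.

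The paralogs, listed for every member but *Maf*, show which gene of each family these cultures expressed. *Spi1* was the most abundant of the 14 ETS genes listed and held between 34.5% and 56.5% of their summed TPM, with *Etv5* next at a mean of 52.7 TPM, while *Spib*, its close relative in B cells, did not pass 0.123 TPM. *Irf8* led the 9 IRF genes by its mean over the 12 libraries, with a median share of 40.8%, followed by *Irf5* at a mean of 177 TPM. Its share was 41.1% to 42.2% in untreated WT and 28.2% to 29.4% in treated WT libraries, where the mean of *Irf5* (234 TPM) was above that of *Irf8* (203 TPM). In treated KI libraries the share was 33.5% to 40.6% and the means were 144 TPM for *Irf5* and 188 TPM for *Irf8*. *Cebpb* held 62.4% to 76.7% of C/EBP transcripts, followed by *Cebpa* with 8.84% to 17.6%. *Runx1* held 62.4% to 98.8% of RUNX transcripts, and *Cbfb*, which encodes the shared DNA-binding partner of the RUNX proteins, was at a mean of 65.8 TPM. *Ikzf1* held 44.1% to 86.1% of IKZF transcripts.

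For *Mef2a* and *Sall1* a paralog had the higher mean over the 12 libraries, but not in each group. *Mef2c* had a mean of 91.9 TPM and *Mef2a* 60.9 TPM, while in treated KI libraries they were at 57.1 and 59.5 TPM. *Sall3* (6.48 TPM) was slightly above *Sall1* (5.37 TPM), their ranges overlapped, and with IL-4 *Sall1* had the higher mean in WT (4.79 against 4.37 TPM) and in KI (7.17 against 5.89 TPM).

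**Figure D5:**
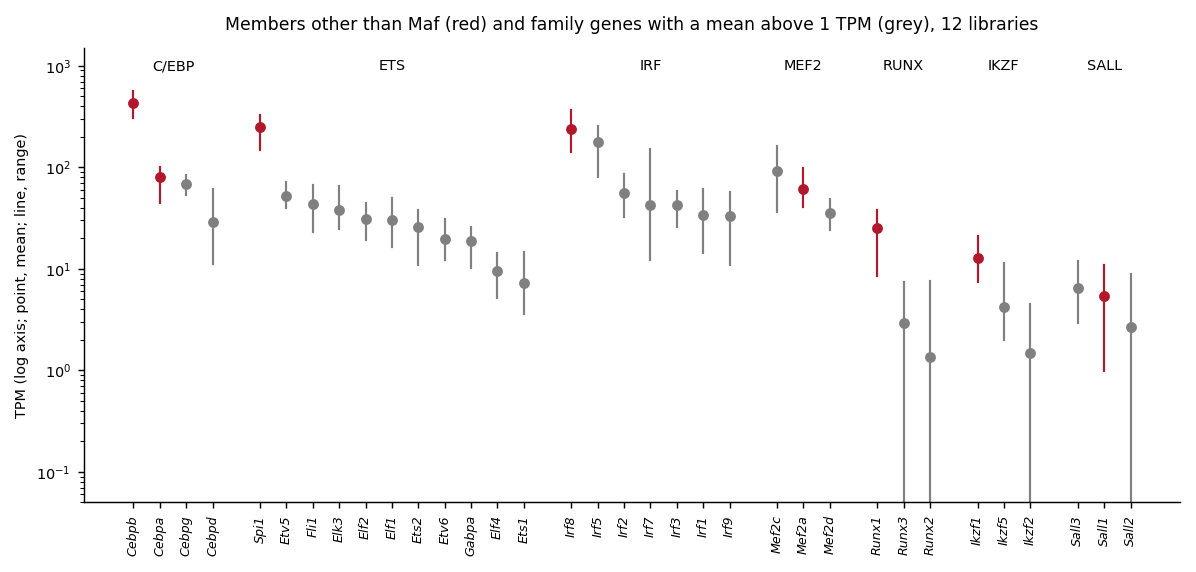
Mean TPM (points) and range over 12 libraries (lines) of the members other than Maf (red) and of their paralogs with a mean above 1 TPM (grey), grouped by family, on a log axis. Lines that end at the lower edge reach 0.05 TPM or less in at least 1 library. Cebpb, Spi1, Irf8, Runx1 and Ikzf1 lead their families by this mean, and Mef2c and Sall3 stand above Mef2a and Sall1.

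None of the 25 family genes that could be tested, of 37 listed, passed the moderated F-test for genotype or IL-4 or the interaction test. A test of the averaged KI minus WT difference alone, which called 575 of all genes where the F-test called 185, called *Irf5* (adjusted p = 0.0193), *Mef2c* (adjusted p = 0.0404) and *Irf9* (-1.10, adjusted p = 0.0408), the last being a subunit of the interferon-activated complex ISGF3. Of these 3 calls, 1 remained with the random replicate block (*Irf5*, adjusted p = 0.0353), 1 without T13 (*Irf5*, adjusted p = 0.0411) and 1 without T15 (*Irf9*, adjusted p = 0.0354), *Irf5* alone remained without T32, and 0 remained without T33, without T43, without the filter, without the variance trend, with the astrocyte covariate or relative to the microglial markers. The F-test for genotype called *Irf5* under median-ratio scaling (adjusted p = 0.0491), *Irf9* after quantile normalization (adjusted p = 0.0477) and, as higher in KI relative to the microglial markers, *Cebpd*, *Etv5*, *Gabpa* and *Ikzf5* (lowest adjusted p = 0.0214). Over all 11204 tested genes that F-test gave 182, 146 and 2210 calls in these settings, the last with 2198 higher in KI. In the main F-test, among the most abundant paralogs, the KI minus WT difference was -0.82 for *Irf5* (adjusted p = 0.0637) and -0.86 for *Mef2c* (adjusted p = 0.119). It was 0.16 for *Etv5*, 0.11 for *Cbfb* (-0.20 without T15), 0.24 for *Sall3*, -0.01 for *Cebpg* (0.05 without T15) and 0.72 for *Ikzf5* (adjusted p = 0.293). *Irf5*, a driver of inflammatory polarization, was at 189 to 254 TPM in untreated WT and at 79.7 to 149 TPM in untreated KI cultures, without overlap. Another 19 regulators of macrophage identity, among them *Zeb2*, *Lmo2* and *Mitf*, gave 18 testable genes, of which 0 passed in these 3 tests and 1, *Lmo2*, in the test of the averaged genotype difference alone (adjusted p = 0.0236), a call lost without T13, T33, T43, T15 or T32. Relative to the microglial markers the F-test for genotype called 3 of these regulators, *Egr1*, *Jun* and *Fos*, as higher in KI (lowest adjusted p = 0.00955). In that setting 2198 of the 11204 tested genes were called as higher in KI.

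Genes known as direct targets of PU.1 were read as a list of 16, all of them testable. Of these, 3 fell in KI, where 0.357% of all genes did: *Ncf4*, a subunit of the phagocyte NADPH oxidase (difference -0.95, adjusted p = 0.00922), *Csf1r*, the receptor that keeps microglia alive (-0.83, adjusted p = 0.0408), and *Itgam*, the integrin CD11b (-0.85, adjusted p = 0.0408). *Csf1r* and *Itgam* also belong to the microglial marker list. The other 13 did not pass, and all 16 differences were negative, with a median of -0.57 against 0.13 over all genes. The 16 testable microglial markers showed the same, all negative with a median of -0.65 and 5 calls. Without T15, *Ncf4* still passed (-0.86, adjusted p = 0.0281), while *Csf1r* (-0.68, adjusted p = 0.130) and *Itgam* (-0.82, adjusted p = 0.0845) did not. Relative to the microglial markers the differences of the 3 genes were -0.39, -0.27 and -0.29 in that order, and none passed.

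These calls depended on the processing. Over the alternative settings the genotype call was lost in 15 and kept in 4 for *Csf1r* and for *Itgam*, and lost in 7 and kept in 12 for *Ncf4*. With a random replicate block, *Ncf4* passed (adjusted p = 0.0162), and *Csf1r* (adjusted p = 0.0648) and *Itgam* (adjusted p = 0.0766) did not. *Ncf4* lost the call without T33 (-1.05, adjusted p = 0.0553) and without T43 (-0.92, adjusted p = 0.0964). *Itgam* lost it without any 1 of the 6 cultures (-0.95 to -0.67, adjusted p between 0.0676 and 0.188). *Csf1r* kept it only without T32 (-0.96, adjusted p = 0.0488), and was between -0.94 and -0.67 without each of the others (adjusted p between 0.0716 and 0.203).

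Without IL-4, *Ncf4* stood at 125, 99.7 and 114 TPM in WT and 50.4, 50.9 and 50.7 TPM in KI. With IL-4 it was at 185, 145 and 182 TPM in WT and at 77.2, 106 and 119 TPM in KI. The KI groups lay below the WT groups at both treatments, and the treated library was the higher one in all 6 cultures. For IL-4, *Ncf4* rose (0.77, adjusted p = 0.0242), where 0.750% of all genes did, and *Cybb*, which encodes the membrane subunit of the same oxidase, fell (-0.80, adjusted p = 0.0226), where 0.143% did. *Cybb* was at 476, 388 and 474 TPM in untreated and at 259, 199.6 and 249.5 TPM in treated WT libraries, and it was lower with IL-4 in 6 of 6 cultures. Over the alternatives the IL-4 call was lost in 12 and kept in 7 for *Ncf4*, and lost in 9 and kept in 10 for *Cybb*, with the direction kept throughout. Relative to the microglial markers *Ncf4* (adjusted p = 0.436) and *Cybb* (adjusted p = 0.159) did not pass, and with the fixed replicate block both did (adjusted p = 0.00774 and 0.00275). *Ncf4* kept the call without T15 and lost it without each of the other 5 cultures (0.71 to 0.78, adjusted p between 0.0913 and 0.194). *Cybb* lost it without T13, T33, T43 or T22 (-0.81 to -0.70, adjusted p between 0.0759 and 0.225). The other 14 targets did not pass for IL-4. *Ncf4*, *Csf1r*, *Itgam* and *Cybb* are the PU.1 targets of the list that passed an F-test, and the test of the averaged genotype difference alone called 5 targets as lower in KI, *Msr1* and *Itgb2* besides the first 3. Over all 11204 genes that test called 133 as lower in KI, and 61 without T15, 30 without T33 and 14 without T43. Without T15 or without T33 it called the first 3 targets, and without T43 *Ncf4* alone. *Spi1* itself passed neither test.

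The genes whose log2(TPM + 1) followed each member most closely over the 12 libraries were found among all tested genes. The 12 libraries come from 6 cultures and share the T15 contrast, so these correlations are descriptions. *Spi1* was followed by *Arpc1b* (Pearson r = 0.97), a subunit of the actin-nucleating Arp2/3 complex, *Irf5* (r = 0.97) and *Nckap1l* (r = 0.95), a WAVE complex gene of blood cells. Without T15 these were 0.93, 0.93 and 0.87 over 10 libraries. *Irf8* was followed by *Milr1* (r = 0.95), *Fbxw4* (0.94) and *Ncbp3* (0.92), and *Cebpa* by *Colgalt1* (0.94), *Litaf* (0.93) and *Ddi2* (0.91). *Runx1* was followed by *P2rx4* (r = 0.91), an ATP-gated channel, *Abcg2* (0.91) and *Tmem37* (0.90), and the first of these dropped to 0.69 without T15. *Mef2a* was followed by *Timm10b* (0.93), *Ralgapa2* (0.88) and *Fam117b* (0.86).

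For *Ikzf1* the closest genes were *Aebp2* (r = 0.92), *Pld4* (0.83) and *Cysltr1* (0.82), and for *Cebpb* they were *Rnaseh2a* (0.90), *Tnip3* (0.88) and *Zcchc2* (0.87). *Maf* was followed by *Dok3* (0.85), *Trmt112* (0.85) and *Hps4* (0.84). *Sall1* was followed by *Snord91a* (r = 0.93), a small nucleolar RNA listed between 0 and 106 TPM, *Ssbp2* (0.88) and *Ifit1* (0.87), an interferon-induced gene. Among the members themselves, *Runx1* and *Cebpa* were the closest pair (r = 0.81), and this dropped to 0.40 without T15. *Spi1* and *Ikzf1* went the other way, from 0.58 with T15 to 0.85 without it, and *Spi1* and *Cebpb* went from 0.71 to 0.80. *Spi1* and *Irf8* had an r of 0.44 with T15 and of -0.10 without it.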

How the data were processed

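Polyadenylated RNA of 12 libraries (6 cultures, each untreated and with IL-4) was analysed. Reads had been trimmed (Trim Galore), quantified by the authors with Salmon against ENSEMBL GRCm38 (GC and positional correction) and summarised per gene (tximport); tool versions are not given in the sources used here. The deposited values are TPM per gene, which sum to 1000000 in each library and keep no counts, so depth is unknown, no counting error can be given, and precision is the spread between cultures. The authors' own tests on read counts were not analysed here.

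Identifiers were matched to symbols and to GENCODE coordinates on GRCm38. Groups were taken from the labels. Genes with a mean log2(TPM + 1) above 1.5 entered a limma fit (version 3.58.1, R 4.3.3; variance trend, 4 group means, moderated F-tests for genotype and for IL-4, Benjamini-Hochberg over 11204 genes, threshold 0.05), and the fit was tested on simulated data. Libraries whose titles carry the same culture number were taken to share that culture, which the labels do not state in words, and were also fitted as a replicate block. Their deviations from the group means correlated by 0.079 to 0.378, in 5 of 6 cultures more than with any library of another culture, the exception being T22 (0.121 against 0.188). The F-test for genotype takes the KI minus WT differences of both treatments together. That for IL-4 takes the differences of both genotypes together. Mean differences and their intervals are thus printed beside the p of a joint test, unless a test of the averaged difference alone is named. P-values of the main fit measure the spread between the libraries of a group. That fit counts the 2 libraries of a culture as independent, and the fits with a replicate block do not.

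The members and gene lists were chosen with earlier results of these data known. Named genes are all members, *Trem2*, genes of the family, regulator and PU.1 target lists past the threshold, the most abundant gene of each family list, and the 3 genes most correlated with each member. *Mrc1* and the markers given by value were named after their values were seen. Alternatives were another pseudocount, filter, scaling, variance model, reference, covariate, contrast and replicate block, and leaving out each culture; the reference to microglial markers without T15 and the correlations without T15 were added after seeing the data. Paralogs of *Maf* are not reported here.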

Additional observations from a re-analysis of the deposited data

Results flagged for a closer look

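Of the members and named genes, 1 gave opposite IL-4 differences in every culture of the 2 genotypes. *Ikzf5*, a paralog of *Ikzf1*, was higher with IL-4 in 3 of 3 WT cultures (1.99 to 2.95, 2.11 to 2.69 and 3.15 to 3.79 TPM) and lower in 3 of 3 KI cultures (11.4 to 2.75, 4.55 to 4.48 and 7.09 to 3.64 TPM). The KI minus WT difference of the IL-4 differences was -1.14 on the log2(TPM + 1) scale and -0.70 without KI culture T15, and the limma interaction test did not pass (adjusted p = 0.9997 over all genes). No member of the 9 showed this pattern. Groups of 3 libraries were too small for a test of single outlying values.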

How the results depend on the processing

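The number of members past the threshold was 0 in all 54 combinations of comparison and alternative setting, and 20 separate steps in the order of levels became 18 under median-ratio scaling, where 36 of 36 group means of the members moved by less than 1 SD. Genotype was fitted with culture as a random block, and IL-4 and the interaction with culture as a fixed block. In these fits the count of members called was 0 for each effect. Over all genes the IL-4 count went from 100 to 240 and the genotype count from 185 to 77. TPM without depth and 3 cultures per genotype limit what could be seen.

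No member passed the threshold in any of the 54 combinations, and the cause of the changes of sign and size below was not tested. Relative to the microglial markers, 6.17% of all tested genes had a negative genotype difference. The genotype difference turned positive relative to the microglial markers for *Spi1* (0.041), *Irf8* (0.39), *Maf* (0.21), *Runx1* (0.38), *Cebpa* (0.44), *Cebpb* (0.25), *Mef2a* (0.42) and *Ikzf1* (0.088), since the markers themselves were lower in KI. With T15 also left out, a setting chosen after seeing the data, it was 0.11, 0.50, 0.22, 0.68, 0.54, 0.12 and 0.45 for the first 7 of these, in the same order, and -0.12 for *Ikzf1*. With the astrocyte score as covariate, it was 0.095 for *Irf8*, 0.32 for *Runx1*, -0.80 for *Sall1*, 0.17 for *Cebpa* and 0.12 for *Mef2a*, and it shrank without a change of sign from -0.52 to -0.25 for *Spi1* and from -0.35 to -0.072 for *Maf*. *Sall1* was at -0.12 after quantile normalization and at -0.13 in untreated libraries alone. For IL-4, *Sall1* was at -0.12 in WT alone, and *Mef2a* at -0.12 in WT alone, -0.033 with quantile-normalized values, -0.038 with median-ratio scaling, -0.037 relative to the markers and -0.0035 with T15 also left out. The interaction was -0.11 for *Spi1*, -0.12 for *Irf8* and -0.18 for *Ikzf1* relative to the markers, and -0.058 for *Irf8*, 0.011 for *Maf* and -0.024 for *Ikzf1* with T15 also left out. For *Maf*, *Runx1* and *Cebpb* it was 0.010, 0.066 and 0.061 with quantile-normalized values, 0.028, 0.032 and 0.061 with median-ratio scaling, and 0.0074, 0.051 and 0.0080 with the astrocyte covariate, where *Ikzf1* was at -0.0062. Leaving out 1 culture in turn gave genotype differences of -0.31 to 0.064 for *Irf8*, -0.43 to 0.24 for *Runx1*, -0.33 to 0.76 for *Sall1*, -0.28 to 0.10 for *Cebpa* and -0.32 to 0.030 for *Mef2a*. It gave IL-4 differences of -0.10 to 0.37 for *Sall1* and -0.068 to 0.13 for *Mef2a*. Interactions ranged from -0.13 to 0.31 for *Spi1*, -0.062 to 0.32 for *Irf8*, -0.27 to 0.11 for *Maf*, -0.30 to 0.34 for *Runx1*, -0.44 to 0.034 for *Cebpa*, -0.16 to 0.19 for *Cebpb*, -0.012 to 0.39 for *Mef2a* and -0.23 to 0.27 for *Ikzf1*. Over all genes, the genotype count was 185, and it was 125 with a pseudocount of 0.1, 16 without a filter, 26 without the variance trend, 51 with the astrocyte covariate, 2210 relative to the microglial markers, 3 to 191 without 1 culture, 575 in the 1-coefficient test of the averaged difference, 102 in untreated and 2 in treated libraries alone. The IL-4 count of 100 was 151 in the 1-coefficient test, 64 in WT alone and 45 in KI alone, 61 without a filter, 50 without the variance trend, 189 with the astrocyte covariate, 64 relative to the markers and 46 to 143 without 1 culture. The split of 145 higher and 40 lower became 111 and 71 under median-ratio scaling.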

Other observations

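Some regulators outside the 9 genes were named after their values were seen. *Bhlhe40*, a basic helix-loop-helix repressor of macrophages, was at 31.0 to 45.2 TPM in the 6 untreated libraries and at 67.0 to 122 TPM in 5 of the 6 treated ones, the exception being T15 with 26.3 TPM. Its IL-4 difference was 1.12 (95% CI 0.47 to 1.76) and did not pass (limma, adjusted p = 0.296), but it passed without T15 (adjusted p = 0.00114) and with the fixed replicate block (adjusted p = 0.0483). *Mitf* and *Tfec*, related factors of lysosomal and macrophage genes, were both higher with IL-4 in 6 of 6 cultures, with differences of 0.76 and 1.73 (adjusted p = 0.594 and 0.588). *Irf1* had an IL-4 difference of 0.87 (adjusted p = 0.317). *Lmo2*, a LIM-domain adaptor of blood transcription complexes, had a KI minus WT difference of -0.73 (adjusted p = 0.0799), and it passed in a test of the averaged difference alone (adjusted p = 0.0236).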
